A study of Mus musculus with 9 samples.

Results

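The genes described here are 10 genes of the glucocorticoid system, out of 26139 genes in a kidney RNA-seq table. They were chosen by name, with earlier results of these data known. Of the 10 genes, 6 are genes that the glucocorticoid receptor is known to induce (Zbtb16, Tsc22d3, Fkbp5, Sgk1, Dusp1 and Ddit4). The other 4 are the glucocorticoid receptor Nr3c1, the mineralocorticoid receptor Nr3c2, and the enzymes Hsd11b1 and Hsd11b2, which make and remove active glucocorticoid inside cells. RNA was taken from mouse kidney in 9 libraries, 3 in each of 3 groups. The control group was wild-type C57/BL6 mice given saline by gavage. The IgAN group was mice with the Itgam-IRES-hCD89 allele, which places human CD89, a receptor for IgA, behind the myeloid gene Itgam, and these mice were also given saline by gavage. The GQYS group carried the same allele and was gavaged every day for 5 months with Gui-qi-yi-shen granules, a herbal preparation under study for IgA nephropathy. The sample titles call the saline groups untreated. The labels give neither age nor sex, and do not say that each library is a separate animal, so each p-value reflects how far these particular libraries spread, and that spread may be partly technical. The design compares the model with wild type, the treated with the untreated model, and the treated model with wild type.

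In background, glucocorticoid enters the cell and binds Nr3c1, which is held ready by heat shock proteins and their partners. The bound receptor moves to the nucleus, attaches to DNA and raises the transcription of its target genes, several of which feed back on the response. In the kidney, Nr3c2 acts in the distal nephron and collecting duct, where Hsd11b2 inactivates glucocorticoid and leaves the receptor to aldosterone. Hsd11b1 works in the opposite direction and regenerates active glucocorticoid.

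Library totals, recovered as whole reads from the steps of the values, were between 30564947 and 38161564 reads. Values are in FPKM, reads scaled by gene length and library total, so levels of different genes can be set side by side per length. The 8 markers of the proximal tubule, the most abundant epithelium of the kidney, summed to between 4657 and 5396 FPKM in the 9 libraries, and none of them was at 0. Libraries that stood apart were control replicates 1 and 3 and IgAN replicate 1. The summed level of 10 immediate-early genes, which are induced within minutes of a stimulus, was 209.9 FPKM in control replicate 1 and 106.7 FPKM in IgAN replicate 1, against 42.7 to 67.0 FPKM in the other 7. IgAN replicate 1 also had 43.8 FPKM of the tubular injury marker Havcr1, against at most 1.79 FPKM elsewhere. Control replicate 3 had 16.9 FPKM of summed fat markers and 14.6 FPKM of summed urothelium markers, against at most 0.539 and 5.38 FPKM elsewhere. For the genes whose changes rest most on these libraries, values without them are also given.

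Zbtb16, a zinc finger transcription factor (also called PLZF), was the member that moved most. It stood at 0.266, 0.436 and 0.354 FPKM in the control libraries. In the IgAN libraries it stood at 6.46, 5.41 and 3.88 FPKM, and in the GQYS libraries at 0.914, 0.335 and 0.272 FPKM. Every IgAN library was thus far above every other library, and the control and GQYS ranges overlapped. Behind these values lay 1068 to 1624 reads per IgAN library, 77 to 137 per control library and 70 to 252 per GQYS library. The means were 0.352 ± 0.0851 FPKM in control, 5.25 ± 1.29 FPKM in IgAN, and 0.507 ± 0.354 FPKM for the GQYS libraries (SD, n = 3 each). The IgAN mean was 14.9 times the control mean and 10.4 times the GQYS mean. On the scale of log2(FPKM + 1), which understates changes of low genes, Zbtb16 rose by 2.19 in IgAN against control (SE 0.189, limma adjusted p = 0.00108). It fell by 2.06 in GQYS against IgAN (SE 0.189, limma adjusted p = 0.00193). GQYS against control gave 0.13 with a 95% interval from -0.29 to 0.56. In whole kidney, more RNA per cell and more cells of one type cannot be told apart. Zbtb16 passed the expression filter (3 libraries or more at 1 FPKM or higher) only through its 3 IgAN libraries. Without any filter, and without control and IgAN replicate 1 together, it still passed the test in both comparisons.

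Tsc22d3 encodes GILZ, a leucine zipper protein that carries part of the anti-inflammatory action of glucocorticoids. Its window upstream of a start site is shown because it holds the receptor hexamer AGAACA, on the strand opposite to the gene, a motif found in 19% of all 32851 mouse promoter windows of 300 bases. The windows are from RefSeq on GRCm38.p6 and run from 250 bases before to 50 bases after each start. The sequence below is the 250 bases before one of the 3 annotated starts, on the minus strand at chrX:140600523-140600772, with the hexamer, read as TGTTCT on this strand, in capitals.

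Tsc22d3: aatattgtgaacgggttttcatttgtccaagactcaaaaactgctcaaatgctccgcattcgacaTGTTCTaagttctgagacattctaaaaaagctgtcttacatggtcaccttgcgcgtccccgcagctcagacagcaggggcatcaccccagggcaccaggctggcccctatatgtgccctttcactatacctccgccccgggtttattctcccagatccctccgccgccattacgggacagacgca

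Tsc22d3 measured 14.02, 10.01 and 12.02 FPKM in control, 19.4, 16.6 and 14.6 FPKM in IgAN, and 8.96, 8.57 and 8.31 FPKM in GQYS. The 3 groups did not overlap: IgAN was highest, control intermediate and GQYS lowest, and the GQYS libraries lay within 1.08 times of each other. Tsc22d3 fell in GQYS against IgAN by 0.88 on the log2 scale (SE 0.138, limma adjusted p = 0.0467), from a mean of 16.8 ± 2.39 to 8.61 ± 0.325 FPKM (SD, n = 3 each). That call lies close to the threshold of 0.05. It was lost in 12 of 18 alternative settings, with an adjusted p of 0.293 when GQYS replicate 3 was left out and 0.0702 when control replicate 3 was left out. It held at 0.0210 without control and IgAN replicate 1 together. IgAN against control gave a log2 change of 0.46 (limma adjusted p = 0.244). GQYS against control gave -0.43, with an unadjusted p of 0.0119 and an adjusted p of 0.928.

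Fkbp5 encodes FKBP51, a co-chaperone that lowers the affinity of the receptor for its hormone and so closes a feedback loop. Its levels were 13.5, 19.2 and 27.4 FPKM in control, 61.7, 41.2 and 31.4 FPKM in IgAN, and 16.2, 16.3 and 12.02 FPKM in GQYS. The lowest IgAN library lay above the highest control library, and the spread within control and within IgAN was about 2-fold (2.03 and 1.97 times from lowest to highest). The log2 change was 1.12 in IgAN against control, with a 95% interval from 0.50 to 1.74 and a limma adjusted p of 0.153. It was -1.49 in GQYS against IgAN, with an interval from -2.11 to -0.87 and a limma adjusted p of 0.0946. Neither passed the threshold. Control replicate 3 held the highest control level, and without it the first change was 1.36 (limma adjusted p = 0.125). The change in GQYS against IgAN did pass in 4 of 18 alternatives, with adjusted p = 0.0327 without control replicate 1 and 0.0233 without control and IgAN replicate 1 together. In the same setting without both libraries, the IgAN against control change was 0.63.

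Sgk1, a kinase induced by both glucocorticoid and aldosterone, raises sodium uptake in the distal nephron. One of its promoter windows is shown because it holds the full palindromic receptor element, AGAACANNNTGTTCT, which occurs in 3 of the 32851 windows (0.00913%). Among the 7 of 10 genes with a window in the table, Sgk1 was the one that held it. The shorter core GNACANNNTGTNC, which the palindrome contains, occurs in 156 windows (0.475%). The sequence is the 250 bases before one of 6 annotated starts, on the plus strand of GRCm38.p6 at chr10:21993640-21993889, with the element in capitals. The element covers bases -189 to -175 from the start.

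Sgk1: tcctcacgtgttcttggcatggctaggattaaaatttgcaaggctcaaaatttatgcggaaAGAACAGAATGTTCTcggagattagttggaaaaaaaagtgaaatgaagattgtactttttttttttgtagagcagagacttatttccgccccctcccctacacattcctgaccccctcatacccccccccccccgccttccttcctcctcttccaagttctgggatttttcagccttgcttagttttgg

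Sgk1 measured 14.0, 18.7 and 19.8 FPKM in control, 38.2, 29.9 and 18.4 FPKM in IgAN, and 12.3, 16.5 and 15.2 FPKM in GQYS. IgAN replicates 1 and 2 were the 2 highest of the 9 libraries, while IgAN replicate 3 lay within the control range and just above all GQYS libraries. The log2 change was 0.65 in IgAN against control (95% interval 0.11 to 1.18, limma adjusted p = 0.353) and -0.88 in GQYS against IgAN (-1.41 to -0.35, limma adjusted p = 0.206). Neither passed. Without control and IgAN replicate 1 together the first change was 0.28, less than its size with all libraries, and the second was -0.66. Without control replicate 3, the highest control library, the first was 0.74, and without IgAN replicate 1 alone it was 0.42. The sum over 7 principal cell markers was 193, 250 and 296 FPKM in IgAN replicates 3, 1 and 2. It was 180 to 196 FPKM in control and 159 to 187 FPKM in GQYS. In IgAN, replicate 3 had the lowest Sgk1 and the lowest sum, while replicate 1 had the highest Sgk1 and replicate 2 the highest sum. In control, replicate 1 had the lowest Sgk1 and the highest sum. In GQYS, replicate 2 had the highest Sgk1 and the lowest sum. In IgAN against control the median log2 change of the 7 markers was 0.12. At an unadjusted p under 0.05, 1 of 7 was higher, where 6.97% of tested genes were. In GQYS against IgAN all 7 markers fell, with a median of -0.20 and a range from -0.73 to -0.05. There, 1 of 7 was lower at an unadjusted p under 0.05, where 4.9% of tested genes were. The part of principal cells in the result was not tested.

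Dusp1, a phosphatase that switches off MAP kinases, is induced by glucocorticoid and, as an early gene, by many other stimuli. Its window is shown because it holds a cAMP response element, TGACGTCA, at bases -143 to -136 and none of the receptor motifs searched. That element occurs in 1.79% of all windows. The 250 bases before the start are on the minus strand of GRCm38.p6 at chr17:26508473-26508722, with the element in capitals.

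Dusp1: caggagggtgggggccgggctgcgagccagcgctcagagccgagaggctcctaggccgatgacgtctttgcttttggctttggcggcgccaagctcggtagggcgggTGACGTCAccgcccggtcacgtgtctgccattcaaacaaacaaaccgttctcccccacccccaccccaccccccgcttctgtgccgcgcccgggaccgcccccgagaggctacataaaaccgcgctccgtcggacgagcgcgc

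Dusp1 measured 23.7, 20.7 and 14.6 FPKM in control, 26.8, 27.8 and 26.0 FPKM in IgAN, and 18.2, 14.5 and 19.0 FPKM in GQYS. The 3 IgAN libraries were the highest of all and close to each other (26.9 ± 0.921 FPKM, SD, n = 3), and control and GQYS overlapped. The log2 change was 0.46 in IgAN against control (limma adjusted p = 0.351) and -0.62 in GQYS against IgAN (limma adjusted p = 0.207), and neither passed. The first change rested in part on control replicate 3, the lowest control library: without it the change was 0.27, and without control and IgAN replicate 1 together it was 0.60. The second was -0.62 without those replicate 1 libraries, and passed in 1 of 18 alternatives, library quality weights (limma adjusted p = 0.0497). The summed immediate-early genes lay beside it, at 63.2 to 106.7 FPKM in IgAN against 42.7 to 56.5 FPKM in GQYS, and at 50.7 to 209.9 FPKM in control. Their part in the result was not tested.

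Ddit4 encodes REDD1, an inhibitor of mTORC1 that is also induced by low oxygen and energy stress. It measured 14.9, 11.7 and 10.9 FPKM in control, 19.0, 8.96 and 8.11 FPKM in IgAN, and 8.81, 5.65 and 9.91 FPKM in GQYS. It was the one target whose IgAN mean, 12.01 ± 6.04 FPKM, was not above the control mean of 12.5 ± 2.11 FPKM (SD, n = 3 each), and its IgAN values rested on replicate 1. IgAN against control gave a log2 change of -0.14 (95% interval -0.78 to 0.51, limma adjusted p = 0.938), and -0.37 without control and IgAN replicate 1 together. GQYS against IgAN gave -0.45, and -0.09 without IgAN replicate 1. All GQYS libraries were below all control libraries, with a log2 change of -0.58 (interval -1.23 to 0.07) that did not pass.

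**Figure D1:**
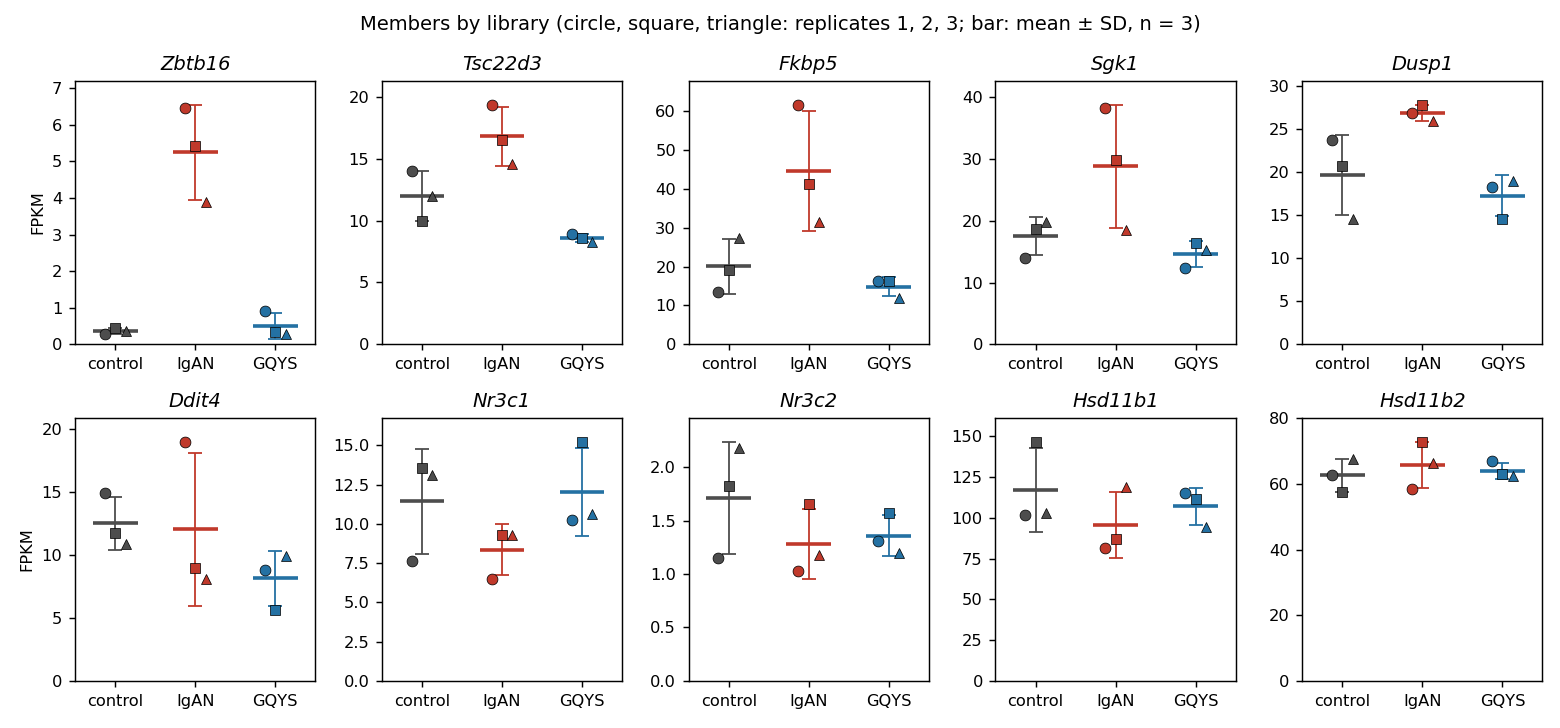
FPKM (vertical axes, from 0) of the 10 genes in each library of the control, IgAN and GQYS groups, with 1 point per library and a bar and whiskers for the mean ± SD of 3 libraries. The IgAN points of Zbtb16 sit between 3.88 and 6.46 FPKM, above a highest value of 0.914 FPKM in the other groups, while Hsd11b2 lies between 57.7 and 72.7 FPKM throughout.

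Nr3c1, the receptor itself, went the other way from most of its targets in its means, but no change passed. It measured 7.61, 13.6 and 13.1 FPKM in control, 6.50, 9.27 and 9.31 FPKM in IgAN, and 10.2, 15.2 and 10.6 FPKM in GQYS. All IgAN libraries were below all GQYS libraries. Control overlapped both: its replicates 2 and 3 lay within the GQYS range, and its low replicate 1 lay within the IgAN range. The log2 change was -0.39 in IgAN against control (95% interval -0.90 to 0.13, limma adjusted p = 0.628). It was -0.63 without control replicate 1 (limma adjusted p = 0.153), -0.23 without IgAN replicate 1 and -0.48 without both. It was 0.47 in GQYS against IgAN (interval -0.04 to 0.98, limma adjusted p = 0.540), and 0.32 without IgAN replicate 1. Nr3c2, the aldosterone receptor, was the lowest of the 4 receptors and enzymes, with means of 1.71 ± 0.523 FPKM in control, 1.28 ± 0.327 FPKM in IgAN and 1.36 ± 0.191 FPKM in GQYS (SD, n = 3 each). Its 9 libraries ran from 1.03 to 2.18 FPKM and the 3 groups overlapped. The IgAN against control change of -0.24 had an interval from -0.60 to 0.12 (limma adjusted p = 0.677).

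Per library, Nr3c1 stood at 6.03 to 7.47 times Nr3c2 in control, 5.61 to 7.93 times in IgAN and 7.82 to 9.72 times in GQYS. All GQYS ratios were above all control ratios, and the IgAN and GQYS ratios overlapped. The log2 ratio in GQYS exceeded that in control by 0.39, with an exact two-sided permutation p of 0.1, the smallest that 3 against 3 allows, and 0.6 after adjustment over the 6 ratio comparisons made.

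Hsd11b1, which regenerates active glucocorticoid, was the most abundant of the 10 genes, at 101, 147 and 103 FPKM in control, 81.4, 87.1 and 119 FPKM in IgAN, and 115, 111 and 94.4 FPKM in GQYS. The groups overlapped in every comparison. IgAN against control gave a log2 change of -0.28, and its 95% interval ran from -0.69 to 0.12 (limma adjusted p = 0.655). Hsd11b2, the inactivating enzyme, measured 62.7, 57.7 and 67.6 FPKM in control, 58.6, 72.7 and 66.2 FPKM in IgAN, and 66.9, 62.9 and 62.4 FPKM in GQYS. It varied least of the 10, with a mean absolute deviation of 0.0814 on the log2 scale over the 9 libraries against 0.943 for Zbtb16. The intervals of its 3 changes ran from -0.28 to 0.31 in all. The ratio of Hsd11b1 to Hsd11b2 was 1.89 ± 0.564 in control, 1.46 ± 0.306 in IgAN and 1.67 ± 0.137 for GQYS (SD, n = 3 each), and the 3 groups overlapped (exact two-sided permutation p = 0.4, 0.4 and 0.8 for IgAN against control, GQYS against IgAN and GQYS against control, adjusted p = 0.6, 0.6 and 0.9).

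**Figure D2:**
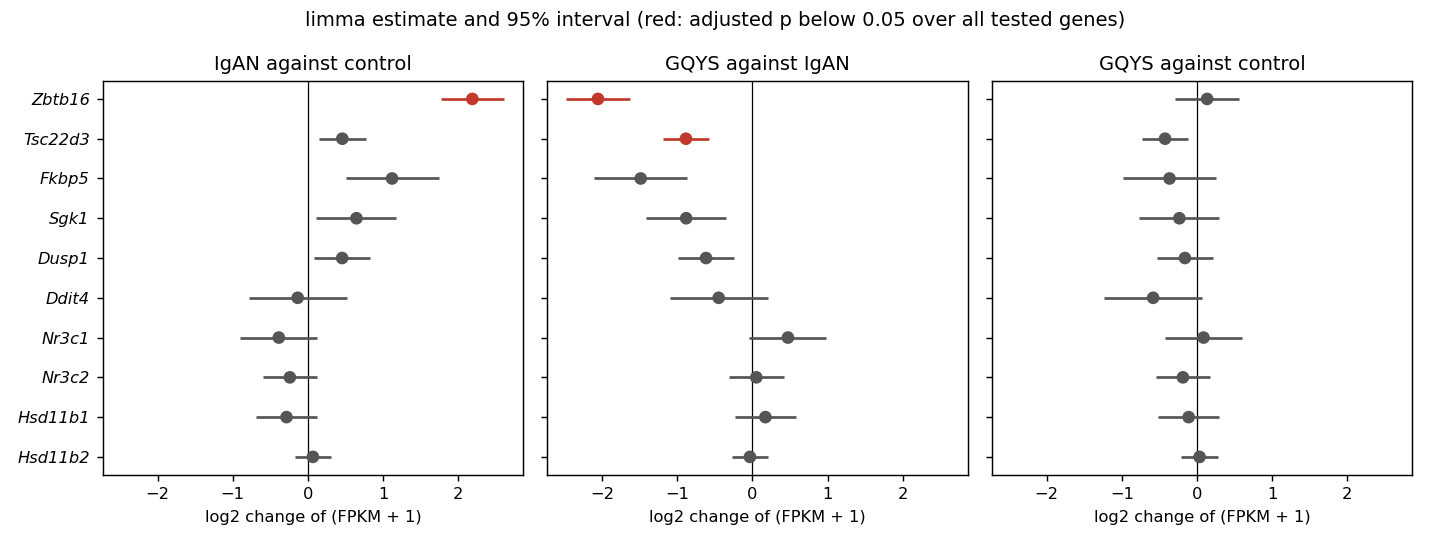
Difference of group means on the log2(FPKM + 1) scale (horizontal axes) for each of the 10 genes in 3 comparisons, with the limma estimate as a point and its 95% interval as a line. Red marks an adjusted p below 0.05 over all tested genes: Zbtb16 at 2.19 and -2.06, and Tsc22d3 at -0.88.

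By level, the order of the group means within control was Hsd11b1, Hsd11b2, Fkbp5, Dusp1, Sgk1, Ddit4, Tsc22d3, Nr3c1, Nr3c2 and Zbtb16. The ranges of Fkbp5, Dusp1 and Sgk1 overlapped each other there, as did those of Ddit4, Tsc22d3 and Nr3c1. Zbtb16 was the one gene below 1 FPKM in every control library. In IgAN its mean of 5.25 FPKM lay above that of Nr3c2 and below that of Nr3c1.

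Counted over the 10 genes, 1 passed in IgAN against control, where 0.353% of the 11617 tested genes passed. In GQYS against IgAN, 2 passed, where 0.198% of tested genes did. None passed by limma in GQYS against control, where the share over all genes was 0% (and 4.43% at an unadjusted p under 0.05). There, Tsc22d3 alone of the 10 was lower at an unadjusted p under 0.05, where 1.1% of tested genes were. Tsc22d3 and Ddit4 were lower without overlap, where 2.61% were. At an unadjusted p under 0.05, 5 of the 6 targets, all but Ddit4, were higher in IgAN than in control, where 6.97% of tested genes were, and the same 5 were lower in GQYS than in IgAN, where 4.9% were. Groups did not overlap for 4 of 6 targets in IgAN against control, each higher, where 9.18% of tested genes were higher without overlap. In GQYS against IgAN this held for 5 of 6 targets, each lower, where 9.29% of tested genes were lower without overlap, and for 1 of the 4 receptors and enzymes, Nr3c1, which was higher, where 9.84% were. The median log2 change of the 6 targets was 0.55 in IgAN against control, -0.88 in GQYS against IgAN and -0.30 in GQYS against control. For the 4 receptors and enzymes the medians were -0.26, 0.11 and -0.04, and over all tested genes 0.02, 0.01 and 0.03. The first and second comparisons share the 3 IgAN libraries, so they are not independent of each other. Since the 10 genes were chosen with earlier results of these data known, the counts describe them and are not a test. Across any group, by limma's moderated F test, 1 of the 10 passed (Zbtb16, adjusted p = 0.00147) where 0.207% of tested genes did.

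Within the IgAN group the targets shared much of their order. IgAN replicate 1 was the highest of its group for 5 of 6 targets and the lowest for all 4 receptors and enzymes, and IgAN replicate 3 was the lowest for all 6 targets. In the control group no such order was present: replicate 1 was highest for 3 targets and lowest for the other 3. The share of all tested genes with the same order in IgAN was not counted, so the order may not be particular to these genes. IgAN replicate 1 is the library with the high Havcr1 level. The part of injury in these levels was not tested.

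**Figure D3:**
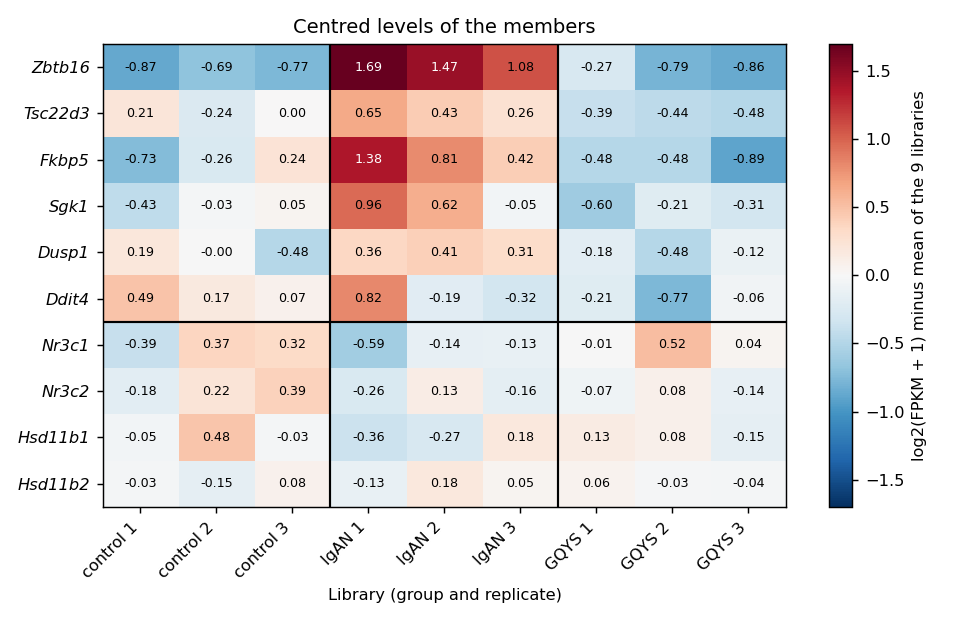
log2(FPKM + 1) of each of the 10 genes (rows) in each library (columns), minus that gene's mean over the 9 libraries, in colour and as printed numbers. In IgAN replicate 1 the 6 targets are all above their mean, from 0.36 to 1.69, and the 4 receptors and enzymes are all below it, from -0.59 to -0.13.

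A wider list of 24 further genes that glucocorticoid is known to induce had 23 tested members. Of these, 2 rose in IgAN against control and none fell, where 0.353% of all tested genes passed, and the median log2 change of the list was 0.54. In GQYS against IgAN, 1 fell and none rose, where 0.198% of all tested genes passed, with a median of -0.41. At an unadjusted p under 0.05, 12 of 23 were higher in the first comparison, where 6.97% of all tested genes were. In the second, 10 of 23 were lower, where 4.9% were. This list and those below were chosen with earlier results of these data known, so such counts are descriptions and not a test. Cebpd, a transcription factor that also responds to inflammatory cytokines, measured 3.07, 2.004 and 2.0035 FPKM in control, 13.7, 7.46 and 7.67 FPKM in IgAN, and 2.12, 2.18 and 2.03 FPKM in GQYS. It rose by 1.62 (limma adjusted p = 0.0136) and fell by 1.72 in GQYS against IgAN (limma adjusted p = 0.0123). Each of these calls was lost in 4 of 18 alternatives, with adjusted p of at most 0.0841. The rise missed the threshold without control replicate 3 (0.0570), and both held without control and IgAN replicate 1 together (limma adjusted p = 0.00155 and 0.000861). Angptl4, a secreted inhibitor of lipoprotein lipase, did not share the return. It measured 20.3, 18.1 and 12.98 FPKM in control, 81.8, 50.5 and 63.7 FPKM in IgAN, and 38.9, 69.3 and 48.4 FPKM in GQYS. It rose by 1.87 in IgAN against control (limma adjusted p = 0.0136), a call lost in 3 of 18 alternatives, and gave -0.33 in GQYS against IgAN (limma adjusted p = 0.740). Its GQYS libraries all lay above its control libraries, with a log2 change of 1.54 that did not pass (limma adjusted p = 0.317).

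Other known targets did not pass. Cdkn1a, the cell cycle inhibitor p21, had means of 4.41 ± 0.930 FPKM in control, 16.2 ± 10.2 FPKM in IgAN and 3.84 ± 0.926 FPKM in GQYS (SD, n = 3 each), with IgAN replicate 1 at 27.95 FPKM and limma adjusted p of 0.105 and 0.103. Without control and IgAN replicate 1 together its log2 change went from 1.53 to 0.96 in IgAN against control (limma adjusted p = 0.0604) and from -1.699 to -1.25 in GQYS against IgAN (limma adjusted p = 0.0155). Rhob, a small GTPase, measured 24.6, 23.4 and 22.3 FPKM in control, 49.7, 32.6 and 39.0 FPKM in IgAN and 28.3, 27.1 and 26.2 FPKM in GQYS, and its IgAN against control change of 0.74 had a limma adjusted p of 0.0730.

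The 13 receptor chaperones and co-chaperones, which fold and hold Nr3c1 in a state that can bind hormone, gave no passing gene in the main fit. Without overlap of the groups, 8 of 13 were higher in IgAN than in control, where 9.18% of all tested genes were, and 7 of 13 were lower in GQYS than in IgAN, where 9.29% were. Their medians were 0.37 and -0.23. Hsp90ab1, the constitutive HSP90, measured 490, 458 and 577 FPKM in control, 743, 844 and 831 FPKM in IgAN, and 575, 622 and 547 FPKM in GQYS. Its IgAN libraries were the highest, and its log2 change of 0.67 had a limma adjusted p of 0.0566. The HSP40 protein Dnaja1 had means of 97.0 ± 21.8 FPKM in control, 183 ± 13.3 FPKM in IgAN and 105 ± 13.4 FPKM in GQYS, with a log2 change of 0.93 and a limma adjusted p of 0.0626. Stip1, which links HSP70 to HSP90, gave 0.83 (limma adjusted p = 0.0755), and Hspa8, the constitutive HSP70, gave 0.99 (limma adjusted p = 0.129). Without control replicate 1 the IgAN against control changes of Dnaja1 (1.07), Stip1 (0.98) and Hspa8 (1.18) passed, at limma adjusted p of 0.0214, 0.0214 and 0.0487. Most of the 18 alternatives gave no pass in this comparison: 16 for Hsp90ab1, 14 for Dnaja1, 15 for Stip1 and 16 for Hspa8.

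No gene of 10 receptor coregulators passed, and their median changes were -0.01 and 0.01. Of this list, Smarca4, a chromatin remodelling ATPase, gave 0.29 in IgAN against control (limma adjusted p = 0.445). Ncoa3, a coactivator, gave 0.19 and Ppargc1a, a coactivator of energy metabolism, gave -0.22.

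Among 15 genes of aldosterone-regulated sodium transport, none passed in IgAN against control, where 0.353% of all tested genes did. In GQYS against IgAN 1 fell, where 0.198% of all tested genes passed, and the medians were 0.17 and -0.18. The gene that fell was Usp2, a deubiquitinase that acts on the sodium channel and on clock proteins. It measured 11.2, 10.5 and 12.6 FPKM in control, 19.5, 17.7 and 15.9 FPKM in IgAN, and 9.48, 11.2 and 10.1 FPKM in GQYS, a log2 change of -0.73 in GQYS against IgAN (limma adjusted p = 0.0481) that was lost in 13 of 18 alternatives. Nedd4l, the ubiquitin ligase that removes the channel and is a substrate of Sgk1, had means of 4.29 ± 0.0854 FPKM in control, 6.19 ± 0.552 FPKM in IgAN and 4.66 ± 0.317 FPKM in GQYS (SD, n = 3 each), and did not pass (limma adjusted p = 0.131 and 0.251). The channel subunits Scnn1a, Scnn1b and Scnn1g gave 0.22, -0.05 and 0.12 in IgAN against control and -0.18, -0.07 and -0.20 in GQYS against IgAN, and none passed. Stk39, a kinase of the sodium chloride cotransporter, gave 0.12 and -0.22. Prss8, a channel-activating protease, gave 0.17 and 0.07.

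Of 11 genes of steroid metabolism, 9 were tested and none passed. H6pd, which supplies NADPH to Hsd11b1, measured 24.9, 28.9 and 34.3 FPKM in control, 33.1, 38.5 and 42.0 FPKM in IgAN, and 35.5, 43.6 and 33.2 FPKM in GQYS, with overlapping groups. Srd5a2, a steroid 5-alpha reductase, had all IgAN libraries (2.86 to 4.65 FPKM) below all control libraries (5.41 to 10.4 FPKM) and all GQYS libraries (5.89 to 8.26 FPKM), and its changes of -0.82 and 0.76 had limma adjusted p of 0.188 and 0.248. Srd5a1, the related isoenzyme, gave -0.22 and 0.47. The drug and steroid exporter Abcb1b gave -0.42 and 0.22.

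**Figure D4:**
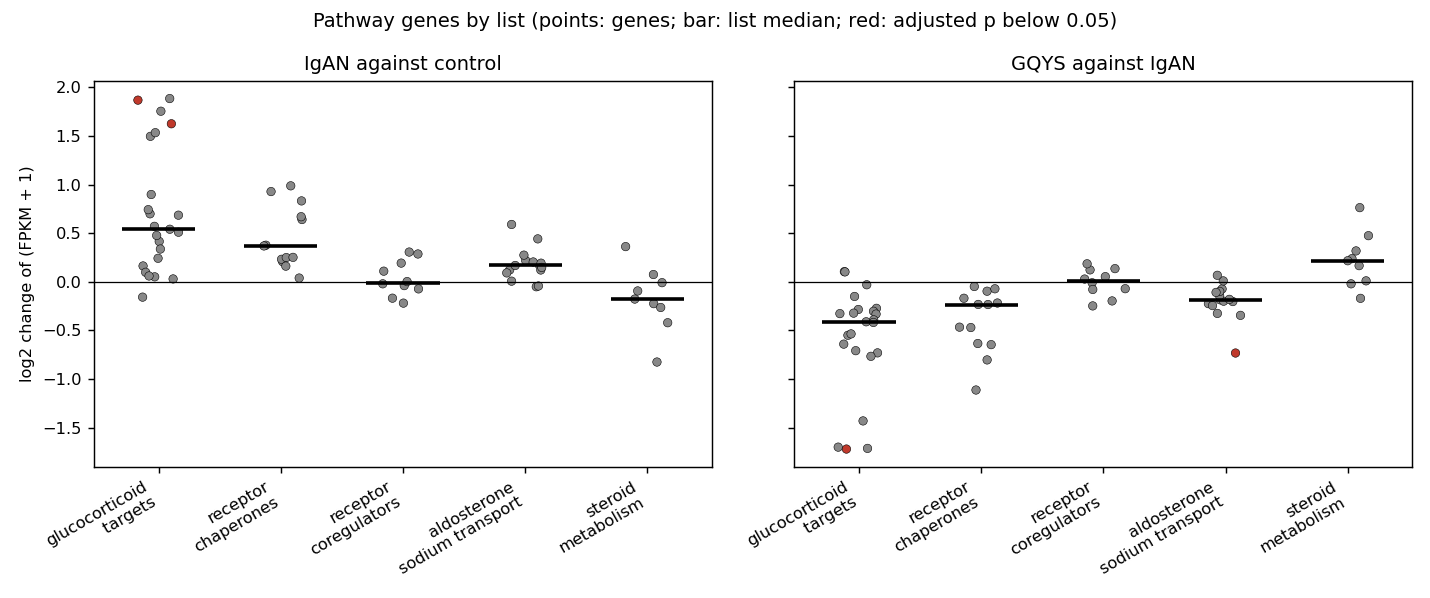
Difference on the log2(FPKM + 1) scale (vertical axis) of every tested gene in 5 lists of glucocorticoid pathway genes outside the 10 members, for IgAN against control and GQYS against IgAN, with a bar at each list's median. Red points passed the test: Angptl4 at 1.87 and Cebpd at 1.62 on the left, Cebpd at -1.72 and Usp2 at -0.73 on the right.

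Genes with a profile over the 9 libraries most like that of Zbtb16 included Socs3, Serpina3g, Retnlg and Cebpd. Likeness was measured as the mean absolute difference of log2(FPKM + 1) profiles, each centred on its own mean, and was 0.21, 0.23, 0.26 and 0.27. Socs3, an inhibitor of cytokine signalling, averaged 0.697 ± 0.252 FPKM in control, 6.13 ± 2.24 FPKM in IgAN and 0.915 ± 0.204 FPKM in GQYS (SD, n = 3 each). Retnlg, a neutrophil gene, averaged 0.0532, 2.505 and 0.0611 FPKM. Of the other members, Fkbp5 came nearest to Zbtb16, at rank 12 with a difference of 0.42. The profile of Tsc22d3 was closest to those of Tubb2b, Usp2, Dnajb4, Banp and Ddit4l, at 0.10, 0.11, 0.13, 0.13 and 0.14. Its nearest member was Dusp1, at rank 55 and 0.19. These likenesses are descriptions over 9 libraries that share their groups.

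Markers of other cells and states moved with some of these groups. The summed level of the neutrophil markers was 26.4 to 33.5 FPKM in IgAN and at most 3.38 FPKM in the other libraries. Of 7 in the table, 3 were tested. These 3 rose in IgAN against control, where 0.353% of all tested genes passed, and fell in GQYS against IgAN, where 0.198% passed. Retnlg, 1 of these 3, averaged 0.0532 FPKM in control and 0.0611 FPKM in GQYS, so it passed the expression filter only through its IgAN libraries. For it, being tested is tied to being high in IgAN. The defining gene Ly6g was at 0 in IgAN replicate 1 and in all control and GQYS libraries. Macrophage markers summed to 58.7 to 85.5 FPKM in IgAN, 33.4 to 67.7 FPKM in control and 42.9 to 49.3 FPKM in GQYS. Fibroblast and pericyte markers summed to 41.8 to 62.0 FPKM in IgAN, 32.6 to 43.8 FPKM in control and 35.9 to 41.7 FPKM in GQYS. In IgAN against control, 3 of 5 tested were higher at an unadjusted p under 0.05, where 6.97% of all tested genes were. Without overlap of the groups, 0 of 5 were higher, where 9.18% were. Endothelial markers summed to 105.6 to 113.6 FPKM in GQYS, above all control (83.1 to 98.9 FPKM) and IgAN (76.1 to 92.9 FPKM) libraries. The podocyte sums were 79.6 to 98.9 FPKM in GQYS, 66.8 to 76.3 FPKM in control and 60.7 to 82.4 FPKM in IgAN. The part of these cells in the changes of Zbtb16 and Tsc22d3 was not tested. The adrenal cortex, where glucocorticoid is made and which lies beside the kidney, was at the floor: its markers summed to at most 0.430 FPKM, and Cyp11b1 and Cyp11b2, the last steps of hormone synthesis, were listed at 0 in all 9 libraries. Hormone levels and the hour of tissue collection are not given in the labels. Of 13 tested clock genes, whose daily rhythm follows glucocorticoid among other signals, none passed, although Dbp measured 5.16, 7.89 and 4.67 FPKM in GQYS against 1.1 to 2.41 FPKM in the other 6 libraries (limma adjusted p = 0.0776 in GQYS against IgAN). Per2, a clock gene that is also a glucocorticoid target, averaged 3.57 ± 1.83 FPKM in control, 6.32 ± 1.30 FPKM in IgAN and 2.70 ± 0.408 FPKM in GQYS (SD, n = 3 each) and did not pass. The clock genes Nr1d1 and Cry2 averaged 5.76 and 2.10 FPKM in control, 12.2 and 1.98 FPKM in IgAN, and 18.2 and 3.24 FPKM in GQYS. Neither passed. For Nr1d1, IgAN replicates 2 and 3, at 15.6 and 15.5 FPKM, lay within the GQYS range. At an unadjusted p under 0.05, 3 of 13 clock genes were higher in IgAN than in control, where 6.97% of tested genes were. In GQYS against control, 4 were higher and 1 was lower, where 4.43% of tested genes changed either way. The part of the clock in the levels of the 10 genes was not tested.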

How the data were processed

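Kidney RNA was extracted with TRIzol, and per the labels' protocols the libraries came from the VAHTS Universal V6 kit. The authors deposited FPKM values, in a single table of 26139 genes by 9 libraries. Per the submitters' processing notes, the build was GRCm39 and the tools, whose roles are not given, were HTSeq, HISAT2, fastp, R 3.2.0 and DESeq2. Annotation and strand setting: not given in the sources used here. Antisense genes that overlap these genes thus cannot be told apart from them. FPKM scales with the library total, so very abundant genes can shift all others.

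The deposited values move in steps, from which whole reads were recovered (tolerance 0.03 reads) for 23797 genes, and the other 2342 were listed at 0 throughout. Library totals differed from the steps by at most 0.0108%. Groups were compared with limma 3.58.1 (R 4.3.3) on log2(FPKM + 1), with all 9 libraries in 1 linear model and empirical Bayes with a mean-variance trend. The 11617 genes that reached 1 FPKM in 3 or more libraries were tested, with Benjamini-Hochberg adjustment and a threshold of 0.05. Ratios were tested with exact permutation tests (scipy 1.17.1). The fit was tested on simulated data. Alternatives were a pseudocount of 0.1, no filter, quantile and median ratio scaling, voom on the recovered reads, a replicate block, library quality weights, only the 2 groups compared, leaving out each library, and, added after seeing the data, leaving out control and IgAN replicate 1 together.

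All 10 members are named. Of each pathway list, genes past the threshold were named, then those with the smallest p until 4, and for each member past the threshold the 5 tested genes of most like profile. Of the genes so chosen, 2 are not reported here. Havcr1, Scnn1a, Scnn1b and Scnn1g were named outside this rule, after their values were seen. Also named outside it were Ly6g, Cyp11b1, Cyp11b2, Mt1, Txnip, Lcn2, Pdk4, Mt2, Glul and Pck1. The members and lists were chosen with earlier results of these data known. Promoter windows are from RefSeq (GRCm38.p6), and both strands were searched. Windows matched by symbol for 7 of 10 genes, and Zbtb16, Nr3c1 and Hsd11b2 had none in that table. Genome coordinates of genes are not printed, since the reference and the table use different builds.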

Additional observations from a re-analysis of the deposited data

How the results depend on the processing

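Zbtb16 passed the test in both comparisons under all 18 alternatives, with adjusted p of 0.000403 to 0.0199 in IgAN against control and 0.000568 to 0.0296 in GQYS against IgAN. All alternatives but the one without a filter tested Zbtb16 only because its 3 IgAN libraries passed the filter. The alternatives reuse the same libraries, so they are not independent support. Members passing in IgAN against control were 1 in the main fit and 3 with library quality weights (Zbtb16, Fkbp5 and Tsc22d3). In GQYS against IgAN 2 passed; 1 passed with a pseudocount of 0.1, no filter, quantile normalization, median ratio scaling or voom on the recovered reads, 4 with weights, and 1 to 3 when 1 library was left out. Over any group 1 passed, 3 with weights, 3 without control and IgAN replicate 1 together, and 1 to 2 when 1 library was left out.

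Over all genes, IgAN against control called 41, and 21 without a filter, 655 with weights, 11 with only the 2 groups and 14 to 65 when 1 library was left out. GQYS against IgAN called 23, and 15 with a pseudocount of 0.1, 13 without a filter, 404 with weights, 63 without control and IgAN replicate 1 together, 43 with only the 2 groups and 6 to 54 when 1 library was left out. GQYS against control called 0 (515 at an unadjusted p under 0.05; voom called 0), 53 with weights and 0 to 1 when 1 library was left out. Any group called 24, and 12 without a filter, 694 with weights, 74 without control and IgAN replicate 1 together and 10 to 51 when 1 library was left out. The cause of these differences was not tested.

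The replicate block gave 68 genes in IgAN against control, 41 genes and 2 members over any group, and changed no call of a member in a single comparison. Deviations of libraries with the same number correlated between -0.364 and 0.581, and 4 of 9 libraries were closest to one of their own number, so the numbers were not taken to pair the samples.

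Signs turned in 9 of 30 member changes, none past the threshold. Under quantile normalization Hsd11b2 gave -0.00636 (IgAN against control) and 0.0357 (GQYS against IgAN), and Nr3c2 gave -0.0168 (GQYS against IgAN). Under median ratio scaling Hsd11b2 gave -0.00217 (GQYS against control). With weights Hsd11b1 gave -0.0217 (GQYS against IgAN) and Nr3c1 gave -0.236 (GQYS against control). Without control and IgAN replicate 1 together Nr3c2 gave -0.0302 (GQYS against IgAN) and Nr3c1 gave -0.160 (GQYS against control). With 1 library left out, values ran from -0.492 to 0.0750 for Ddit4 and -0.00574 to 0.148 for Hsd11b2 in IgAN against control. They ran from -0.0302 to 0.164 for Nr3c2 and -0.114 to 0.0394 for Hsd11b2 in GQYS against IgAN. In GQYS against control they ran from -0.0513 to 0.244 for Zbtb16, -0.160 to 0.220 for Nr3c1, -0.203 to 0.0606 for Hsd11b1 and -0.0239 to 0.0890 for Hsd11b2.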

Other observations

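Among 21 of the 24 further glucocorticoid targets with a promoter window, none held the palindrome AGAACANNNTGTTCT. The core GNACANNNTGTNC was found in windows of Mt1, a metal-binding metallothionein, and of Txnip, an inhibitor of thioredoxin. Mt1 gave a log2 change of 0.68 in IgAN against control and -0.71 in GQYS against IgAN, and 0.49 and -0.21 without control and IgAN replicate 1 together. Txnip gave 0.57 and 0.10. None of these changes passed. Txnip gave 0.67 in GQYS against control, with an unadjusted p of 0.00997 and a limma adjusted p of 0.912.

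Several other targets had large changes in their means that did not pass. Lcn2, an iron-carrier binding protein that is also a marker of tubular injury and of neutrophils, gave 1.88 in IgAN against control and -1.71 in GQYS against IgAN (limma adjusted p = 0.192 and 0.265), and 1.17 and -1.07 without control and IgAN replicate 1 together. Pdk4, which shuts pyruvate out of oxidation, gave 1.75 in IgAN against control and 1.45 in GQYS against control (limma adjusted p = 0.158 and 0.875). Mt2 gave 1.495 and -1.43 in the first and second comparisons (limma adjusted p = 0.378 and 0.421), and 0.82 and -0.65 without those libraries. Glul, glutamine synthetase, gave 0.54 and -0.41 (limma adjusted p = 0.0762 and 0.184). Pck1, an enzyme of gluconeogenesis, gave 0.05 in IgAN against control and -0.73 in GQYS against IgAN (limma adjusted p = 0.974 and 0.431). These genes were named after their values were seen.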
